A study of Rattus norvegicus with 9 samples.

Results

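Dbp, Tef and Hlf encode the PAR bZIP transcription factors, Nfil3 encodes the repressor that competes with them for DNA, and Usp2 encodes a ubiquitin-specific protease whose transcript is a well-known output of the clock. These 5 genes were chosen by name, with earlier results of these data already known, and the comparisons of ischemic with normal artery were part of what they were selected on. Their differences from normal are therefore given as a description, and where a model's call on these contrasts is printed it supports nothing. Of the 5 genes, 4 had a row among the 37203 gene symbols of the count table and all 4 of these were among the 15482 genes with enough counts to be tested. Hlf was not analysed here.

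PAR bZIP factors (named for their proline- and acidic amino acid-rich domain) bind a short DNA element called the D-box and activate genes that carry it. In the circadian clock, BMAL1 (encoded by Arntl) and CLOCK bind E-boxes and drive Dbp and other output genes, while NFIL3 (also called E4BP4) occupies the same D-boxes and represses them. In liver and many other tissues Dbp transcript is among the most strongly rhythmic of all and is abundant when Nfil3 transcript is scarce.

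The arteries were superior mesenteric arteries (SMAs), the vessels that feed most of the intestine, from 8-week-old Sprague-Dawley (SD) rats, and total RNA was sequenced from 9 libraries in 3 groups of 3. The normal group is described by the labels only as normal. The Ischemia 1h and Ischemia 4h groups came from rats that, in the study's methods, were anaesthetized with sodium pentobarbital and bled through a femoral artery catheter, after which the artery was taken at 1 h or at 4 h. The ischemia was thus whole-body blood loss and not a tied vessel. The labels do not say whether normal rats were anaesthetized or catheterized, and they give no hour of the day for any artery. Ischemia, anaesthesia, surgery and the hour of collection cannot be told apart in these groups, and transcripts of clock genes change with the hour in most tissues. All values are of bulk tissue, in which fewer cells of a type and less RNA per cell cannot be told apart.

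The libraries held between 13114273 and 15504240 counts, and 1 CPM (a count scaled to library size) stood for 12.1 to 17.9 counts depending on the library. The 8 smooth muscle markers were detected in every library, with a summed level of 10400 to 45700 CPM in normal, 11900 to 43600 CPM at 1 h and 22800 to 65400 CPM at 4 h. The 8 endothelial markers were also detected in every library, at 641 to 1550 CPM in normal, 570 to 939 CPM at 1 h and 439 to 823 CPM at 4 h. The 12 peripheral nerve markers varied most, from 75.7 to 2500 CPM in normal, from 1580 to 6220 CPM at 1 h and from 217 to 6060 CPM at 4 h, with Dbh at 0 in normal replicate 2 and Snap25 at 0 in replicate 2 of the 4 h group. The summed fat cell markers ran from 670 to 2390 CPM in normal and lay inside that range at 1 h and 4 h. The 7 macrophage markers with a row summed to 21.2 to 102 CPM and the 8 lymphocyte markers to 4.3 to 50.9 CPM over the 9 libraries, with the B cell gene Cd79a at 0 in all of them. The 8 liver and pancreas markers summed to 6.56 to 123 CPM and the 8 skeletal muscle markers to 27.6 to 204 CPM, the fast myosin gene Myh4 being at 0 in all but replicate 3 of the 1 h group. The spread of a typical gene between libraries of a group was wide, with a common biological coefficient of variation of 51.6%.

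The sequence just upstream of each gene's start shows which of the clock's DNA elements lie there, and is shown for Dbp and Tef, which were lower under ischemia, and for Nfil3, which was higher. The 250 bases before the annotated start of Dbp, Tef and Nfil3 are given 5′ to 3′ on the plus strand, from RefSeq on the rat build GRCr8. Capitals mark the elements that were found, which were the E-box CACGTG, the first bases TGACG of a cyclic AMP response element (CRE), and the CCAAT box, which reads ATTGG when it lies on the other strand. The windows are chr1:105312006-105312255 for Dbp, chr7:115206577-115206826 for Tef and chr17:12432126-12432375 for Nfil3.
Dbp: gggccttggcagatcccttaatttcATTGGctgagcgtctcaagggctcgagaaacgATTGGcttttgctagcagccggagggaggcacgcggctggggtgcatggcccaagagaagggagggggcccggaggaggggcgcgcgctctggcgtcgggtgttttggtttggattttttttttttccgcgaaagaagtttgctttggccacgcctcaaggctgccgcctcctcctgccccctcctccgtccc
Tef: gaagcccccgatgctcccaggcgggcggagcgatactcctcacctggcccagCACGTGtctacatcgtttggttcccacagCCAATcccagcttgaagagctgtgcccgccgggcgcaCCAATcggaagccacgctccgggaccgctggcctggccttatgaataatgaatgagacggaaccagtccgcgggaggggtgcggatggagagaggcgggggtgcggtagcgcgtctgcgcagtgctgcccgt
Nfil3: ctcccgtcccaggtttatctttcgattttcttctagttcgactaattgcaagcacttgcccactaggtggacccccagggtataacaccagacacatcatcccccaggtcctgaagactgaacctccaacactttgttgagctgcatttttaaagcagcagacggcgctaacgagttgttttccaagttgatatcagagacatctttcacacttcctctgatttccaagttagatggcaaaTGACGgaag

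The Tef window held 1 E-box, at 198 to 193 bases before the start, an element that 5.59% of the 33469 rat promoter windows of this length held on either strand. Neither Dbp nor Nfil3 nor Usp2 held CACGTG in these 250 bases. The annotated start of Tef used here lies inside the gene's full span, as does that of Usp2, so other transcripts of both genes begin elsewhere.

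The Nfil3 window held TGACG at 9 to 5 bases before the start, a run of letters found in 18.2% of all windows, and it held no CCAAT box. The Dbp window carried ATTGG at 225 to 221 and at 193 to 189 bases before the start, the Tef window carried CCAAT at 169 to 165 and at 132 to 128, and the Usp2 window, on chr8:53310620-53310869, carried 1 as ATTGG. Boxes of this kind stood in 34% of all windows. The windows also differed in base composition, with 61.2% G and C for Dbp, 65.6% for Tef, 52% for Usp2 and 46.4% for Nfil3.

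The D-box itself, searched on both strands as TTATGTAA or TTACGTAA, was in none of the 4 windows and in 0.932% of all windows. The full CRE TGACGTCA, which contains the TGACG above and stood in 1.59% of all windows, and the core of the ROR element, TNGGTCA, which stood in 9.47%, were in none of the 4 either. A match is only a run of letters, and the absence of one concerns only these 250 bases. In the RefSeq gene table, no other annotated gene overlapped any of the 4 genes.

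Dbp, which encodes the founding PAR bZIP activator, was far lower in both ischemic groups than in normal artery. Its levels were 56.2, 61.2 and 215 CPM in the normal libraries, 8.03, 6.48 and 8.54 CPM at 1 h, and 4.71, 10.1 and 7.86 CPM at 4 h. The lowest normal library stood above the highest ischemic one, so the groups did not overlap, and normal replicate 3 stood well above both other normal libraries. The means were 111 ± 90.5 CPM in normal, 7.68 ± 1.07 CPM at 1 h and 7.56 ± 2.71 CPM at 4 h (SD, n = 3 each).

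In the model fitted across all genes, the log2 fold change of Dbp was -3.85 (SE 0.59) at 1 h, a level 14.4-fold lower than normal, and -3.87 (SE 0.59) at 4 h, 14.6-fold lower. The ischemic means were 6.93% and 6.82% of the normal mean. The size of this difference leaned on normal replicate 3, and without that library the log2 fold change was -2.93 at 1 h and -2.95 at 4 h. The spread within the normal group was 3.84-fold from lowest to highest, against 1.32-fold at 1 h and 2.15-fold at 4 h.

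The counts behind the ischemic values of Dbp were modest. They were 120, 97 and 139 at 1 h and 57, 122 and 119 at 4 h, against 1003, 839 and 2916 in the normal libraries. Each ischemic library thus still held a measurable amount of Dbp transcript, and the 1 h and 4 h levels overlapped. The log2 difference between 4 h and 1 h was -0.02 (SE 0.53, adjusted p = 0.991, edgeR quasi-likelihood test).

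Tef, which encodes thyrotroph embryonic factor, a second activator of the family with the same DNA element, was lower in the same direction by a smaller factor. The normal libraries had 111, 105 and 189 CPM, the 1 h libraries 38.5, 71.7 and 58.2 CPM, and the 4 h libraries 38.9, 60.6 and 50.8 CPM. All 6 ischemic libraries lay below all 3 normal libraries, and normal replicate 3 was again the highest.

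The Tef means were 135 ± 46.7 CPM, 56.1 ± 16.7 CPM and 50.1 ± 10.9 CPM in normal, 1 h and 4 h (SD, n = 3 each), so the ischemic groups stood at 41.6% and 37.1% of normal. The log2 fold change was -1.26 (SE 0.32) at 1 h and -1.43 (SE 0.32) at 4 h, levels 2.4-fold and 2.69-fold lower. Between 4 h and 1 h the libraries overlapped and the log2 difference was -0.16 (SE 0.32, adjusted p = 0.878, edgeR).

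Nfil3, which encodes the D-box repressor, was higher in every ischemic library. It was at 9.07, 13.9 and 14.4 CPM in normal, at 69, 89.8 and 79.1 CPM at 1 h, and at 123, 146 and 96.2 CPM at 4 h. The 3 groups did not overlap at all, and their order was normal, then 1 h, then 4 h. The counts ran from 162 to 195 in normal, from 1031 to 1343 at 1 h and from 1457 to 1763 at 4 h.

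The means of Nfil3 were 12.4 ± 2.94 CPM in normal, 79.3 ± 10.4 CPM at 1 h and 122 ± 25 CPM at 4 h (SD, n = 3 each). The log2 fold change was 2.67 (SE 0.25) at 1 h, 6.37-fold higher than normal, and 3.29 (SE 0.26) at 4 h, 9.79-fold higher. Although the 4 h libraries all stood above the 1 h libraries, the difference of 0.62 on the log2 scale (SE 0.24) did not pass the test, with an adjusted p of 0.856 (edgeR).

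Usp2, which encodes a deubiquitinating enzyme whose transcript is rhythmic in many tissues, did not follow Dbp. Its levels were 19.1, 37.1 and 49 CPM in normal, 25.8, 50.5 and 29.2 CPM at 1 h, and 80.3, 82.1 and 46.7 CPM at 4 h. The 1 h libraries lay within the normal range apart from 1 slightly above it. At 4 h, 2 libraries stood above every library of the other groups, and replicate 3 stood just under the highest normal library.

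The Usp2 means were 35.1 ± 15.1 CPM, 35.2 ± 13.4 CPM and 69.7 ± 19.9 CPM in normal, 1 h and 4 h (SD, n = 3 each). The log2 fold change was 0.00 (SE 0.41) at 1 h and 0.99 (SE 0.41) at 4 h, where the level was 1.99-fold higher. The difference between 4 h and 1 h was 0.99 on the log2 scale (SE 0.41) and did not pass the test (adjusted p = 0.856, edgeR). Usp2 also varied with markers of cell types. The summed smooth muscle markers were at 10400, 45100 and 45700 CPM in the normal libraries, 23900, 43600 and 11900 CPM at 1 h, and 65400, 46500 and 22800 CPM at 4 h, and the log2 level of Usp2 correlated with their log2 sum at r = 0.833 over the 9 libraries, against -0.033 for Dbp, -0.007 for Tef and 0.265 for Nfil3. The normal and 4 h libraries with the lowest Usp2 were also those with the lowest smooth muscle sum. At 1 h they differed, with the lowest Usp2 in replicate 1 and the lowest sum in replicate 3. Against the log2 sums of other marker lists, Usp2 was at r = 0.774 for skeletal muscle, -0.749 for lymphocytes and -0.706 for macrophages. It was at -0.609 for fat cells, -0.540 for endothelium and 0.113 for liver and pancreas. Acta1 and Ckm made up most of the skeletal muscle sum, while Myh1, Myh2, Myh4, Mylpf and Actn3 were at no more than 2.51 CPM. Within each group, Acta1 and Ckm ranked the libraries as the smooth muscle sum did. The value for skeletal muscle therefore cannot be told apart from that for smooth muscle. The part of smooth muscle or other cell content in the Usp2 values was not tested. For the nerve markers, the Pearson correlation of Usp2 with the mean log2 level of the 12 nerve genes was -0.561 over the 9 libraries, against -0.223 for Dbp, -0.191 for Tef and 0.124 for Nfil3. The part of nerve tissue in the Usp2 values was not tested beyond a fit that held the nerve level as a covariate, in which its log2 fold change was 0.47 at 1 h and 0.98 at 4 h and its 4 h minus 1 h difference was 0.51.

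**Figure D1:**
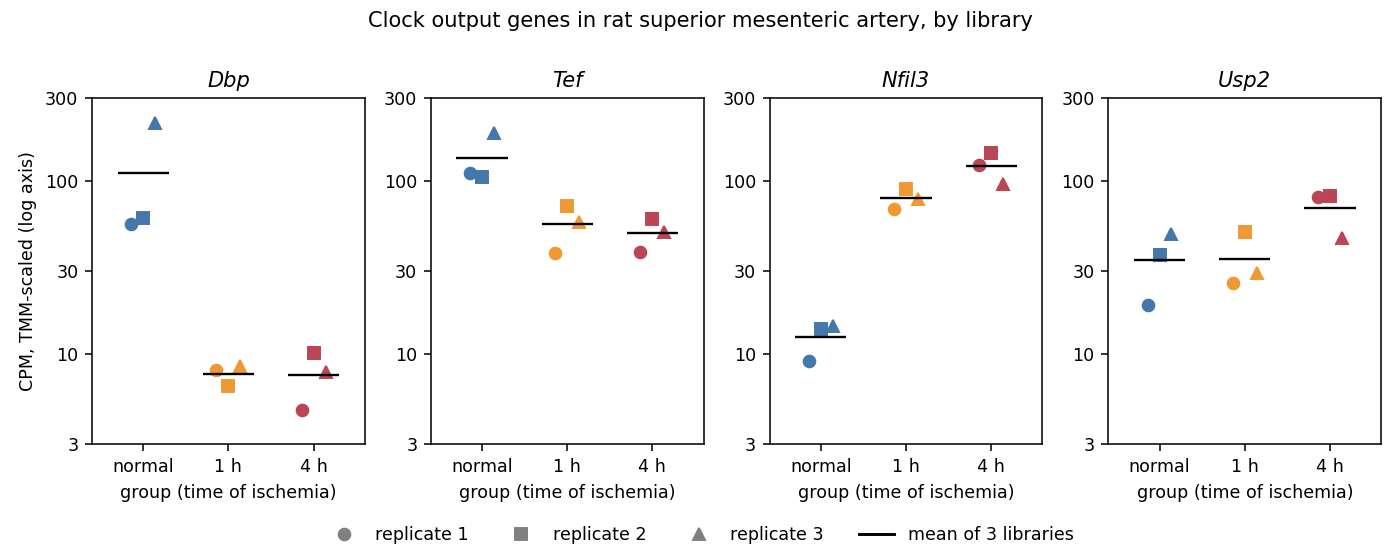
Levels of Dbp, Tef, Nfil3 and Usp2 in CPM on a log axis, for normal artery and for 1 h and 4 h of ischemia, with 1 point per library, marker shapes for replicate numbers and a line at the mean of the 3 libraries. Dbp and Tef lie lower and Nfil3 higher in all 6 ischemic libraries, while Usp2 in 4 h replicates 1 and 2, at 80.3 and 82.1 CPM, stands above all other Usp2 values.

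Among the 4 genes, 1 was called at 1 h and 1 at 4 h (adjusted p under 0.05 with a fold over 1.5, edgeR), and in both contrasts it was Nfil3. Over all 15482 genes tested, 0.0581% were called at 1 h and 0.0904% at 4 h. DESeq2 called 3 of the 4 genes in each contrast, namely Dbp, Tef and Nfil3, and it called 4.28% of all genes at 1 h and 3.52% at 4 h, while edgeR called neither activator. The groups did not overlap for 3 of the 4 genes at 1 h, beside 26.3% of all genes, and for 3 of 4 at 4 h, beside 18.7% of all genes. Nothing is read from these counts, because the genes were selected with these contrasts in view, and both contrasts share the 3 normal libraries.

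The comparison of 4 h with 1 h of ischemia asks whether the genes moved on after the first hour. None of the 4 genes was called by edgeR, beside 0% of all genes, or by DESeq2. At an unadjusted p under 0.05 in the edgeR fit, 2 of the 4 passed (Nfil3 and Usp2, both higher at 4 h), beside 2.58% of all genes tested. That count was 0 without 1 h replicate 1, 1 h replicate 3, 4 h replicate 1 or 4 h replicate 2 and with the nerve level as a covariate, and 1 without normal replicate 2 or with scaling by library size alone. Libraries of the 2 times did not overlap for 1 gene, Nfil3, beside 6.24% of all genes.

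Ratios of 2 genes within 1 library remove its depth and scaling, and only their change between libraries is read here, since gene lengths were not used. The log2 ratio of Dbp to Nfil3 was 2.62, 2.13 and 3.89 in the normal libraries, -3.08, -3.76 and -3.19 at 1 h, and -4.66, -3.83 and -3.59 at 4 h. Every ischemic library stood below every normal one. Its mean was 2.88 ± 0.91 in normal, -3.35 ± 0.37 at 1 h and -4.03 ± 0.56 at 4 h (SD, n = 3 each), a change of -6.22 and -6.91 on the log2 scale. Leaving out any 1 library kept the 1 h change between -6.60 and -5.72 and the 4 h change between -7.28 and -6.40.

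The log2 ratio of Tef to Nfil3 moved the same way, from 3.60, 2.91 and 3.70 in normal to -0.84, -0.32 and -0.44 at 1 h and -1.66, -1.27 and -0.92 at 4 h. Its mean changed by -3.94 at 1 h and by -4.68 at 4 h, less than for Dbp. The ratio of Dbp to Tef, which sets the 2 activators against each other, went from -0.52 ± 0.63 in normal to -2.81 ± 0.60 at 1 h and -2.75 ± 0.23 at 4 h on the log2 scale (SD, n = 3 each). It was lower in every ischemic library than in any normal one. The ratio of Usp2 to Dbp, both known outputs of the same clock, was -1.47 ± 0.71 in normal, 2.12 ± 0.71 at 1 h and 3.20 ± 0.77 at 4 h. It thus stood 3.59 log2 units above normal at 1 h and 4.67 above it at 4 h.

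**Figure D2:**
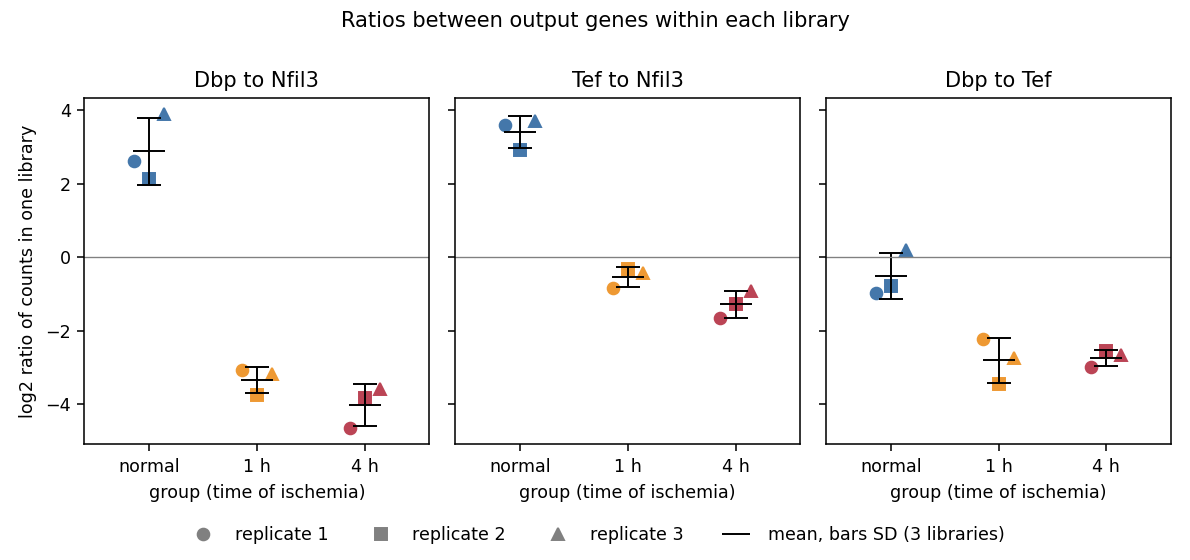
Log2 ratios of counts within each library, from left to right Dbp to Nfil3, Tef to Nfil3 and Dbp to Tef, with 1 point per library and the mean with SD bars over 3 libraries. The Dbp to Nfil3 ratio has a mean of 2.88 in normal artery and lies below -3 in all 6 ischemic libraries.

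Across the 9 libraries, which fall into only 3 groups, the log2 levels of Dbp and Tef ran together (Pearson r = 0.936, Spearman rho = 0.750). Dbp and Nfil3 ran opposite (r = -0.900, rho = -0.650), as did Tef and Nfil3 (r = -0.820, rho = -0.567). Usp2 was only loosely related to Dbp (r = -0.292, rho = -0.300) and to Tef (r = -0.196, rho = -0.050) and ran with Nfil3 (r = 0.585, rho = 0.783). These values restate the group differences and describe these libraries only.

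The order of libraries inside a group held a detail that the means hide, found after the values were seen. Among the normal libraries, replicate 3 had the highest Dbp, Tef, Usp2, Per2, Per3, Nr1d2 and Ciart of the 3. It also had the lowest Arntl, at 18.2 CPM against 32.3 and 28.2 CPM. Not every gene fell in with this, since the same library also had the highest Nfil3 and Cry1 and the lowest Per1, and its Nr1d1 was not the highest. In both ischemic groups Tef had its lowest level in replicate 1 and its highest in replicate 2, and Nr1d1 and Nr1d2 had the same order. Dbp had that order at 4 h but not at 1 h, where replicate 2 was lowest. With 3 libraries per group such orders are a description, and the replicate numbers are not stated to link the groups.

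The other genes of the clock were read from a list of 20, all of which were tested. At 1 h, 1 of the 20 was called and it was lower, against 0.0581% of all genes. In the edgeR fit 8 passed an unadjusted p of 0.05 (4 higher and 4 lower), against 16.7% of all genes. DESeq2 called 4, against 4.28% of all genes, and 10 did not overlap with normal, against 26.3%. At 4 h none was called by edgeR. There 9 passed an unadjusted p of 0.05 (5 higher and 4 lower), against 12.4% of all genes, and 10 did not overlap, against 18.7%. DESeq2 called 7 of the list at 4 h, beside 3.52% of all genes. The list was chosen with earlier results of these data known, and both contrasts share the same normal libraries. Nothing is read from these counts for that reason. The median log2 fold change of the list was 0.10 at 1 h and 0.12 at 4 h, close to the medians of -0.01 and 0.03 over all genes, with 12 genes above 0 and 8 below at 1 h and 11 above and 9 below at 4 h.

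The called gene was Nr1d1, which encodes REV-ERBα. E-boxes drive this gene, and its protein represses Arntl and Nfil3. It fell from 198, 217 and 201 CPM in normal to 11.4, 31.2 and 15.3 CPM at 1 h, which is -3.41 on the log2 scale (SE 0.40, adjusted p = 0.0454, edgeR). At 4 h it was at 29.4, 50.2 and 34.9 CPM (log2 fold change -2.43, SE 0.38, adjusted p = 0.0701, edgeR). Its 3 normal libraries lay close together, unlike those of Dbp. Its call at 1 h was lost when any 1 library other than replicate 2 of the 1 h group was left out.

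The other REV-ERB gene, Nr1d2, and Per3, which encodes a period protein, were lower in all 6 ischemic libraries without passing the test. Nr1d2 had 119 ± 17.3 CPM in normal, 46.8 ± 20.9 CPM at 1 h and 41.7 ± 15.3 CPM at 4 h (SD, n = 3 each), with log2 fold changes of -1.35 and -1.52 (adjusted p = 0.232 and 0.187, edgeR). Per3 had 51.6 ± 10.2, 20.3 ± 11 and 14.8 ± 2.66 CPM in the same order, with log2 fold changes of -1.35 and -1.80 (adjusted p = 0.232 and 0.143, edgeR). Both therefore stood on the side of Dbp and Tef.

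On the side of Nfil3 stood Arntl, which encodes the activator BMAL1, and Cry1, which encodes a repressor of it. Arntl had 26.3 ± 7.24 CPM in normal, 58.7 ± 4.67 CPM at 1 h and 66.2 ± 5.21 CPM at 4 h (SD, n = 3 each), with log2 fold changes of 1.16 (adjusted p = 0.141) and 1.33 (adjusted p = 0.0712) in the edgeR fit. Cry1 was at 6.04 ± 2.26, 15.5 ± 4.69 and 18.3 ± 6.53 CPM, with log2 fold changes of 1.36 (adjusted p = 0.227) and 1.60 (adjusted p = 0.169, edgeR). In neither gene did the ischemic libraries overlap with the normal ones. The other cryptochrome gene, Cry2, was at 74.7 ± 2, 94.4 ± 17.1 and 143 ± 21.2 CPM in normal, 1 h and 4 h. Its log2 fold changes were 0.34 (adjusted p = 0.35) and 0.94 (adjusted p = 0.102, edgeR). Cry2 overlapped with normal at 1 h but not at 4 h, where DESeq2 called it.

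Per1, a period gene that also responds quickly to stimuli, was at 177 ± 23.5 CPM in normal, 292 ± 80.4 CPM at 1 h and 519 ± 120 CPM at 4 h (SD, n = 3 each), with log2 fold changes of 0.72 (adjusted p = 0.28) and 1.55 (adjusted p = 0.0789, edgeR). Its paralog Per2 had log2 fold changes of 0.03 and 0.33. Bhlhe40, which encodes the E-box repressor DEC1, had log2 fold changes of 1.75 at 1 h and 1.27 at 4 h (adjusted p = 0.213 and 0.316, edgeR). Clock, the partner of Arntl, was near its normal level, at 0.05 and 0.15 on the log2 scale. Rorb stands far to the right in the plot of fold changes, but its level was between 0 and 2.46 CPM in every library.

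**Figure D3:**
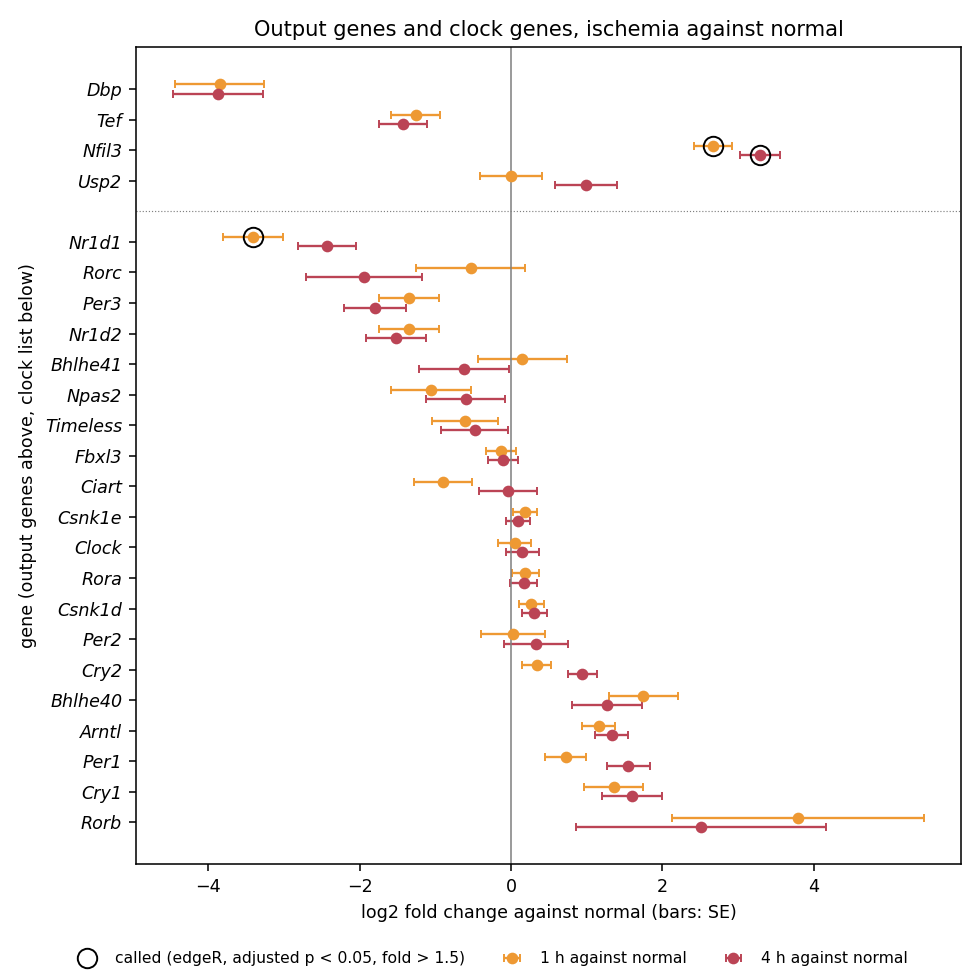
Log2 fold change against normal at 1 h and at 4 h, with SE bars, for the 4 output genes (top) and the 20 genes of the clock list (below, ordered by their 4 h value), fitted by edgeR over all 9 libraries. Black rings mark calls, which were Nfil3 at both times and Nr1d1 at 1 h.

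Of the 20 clock genes, 16 had a promoter window in the RefSeq table. An E-box stood in 4 of these windows, beside 5.59% of all windows. They were those of Nr1d1, Bhlhe40, Bhlhe41 and Ciart, the last with 3 of them. The only D-box was in Per2, at 192 to 185 bases before the start, beside 0.932% of all windows. The ROR core stood in 2 of the 16 windows, beside 9.47% of all windows. Arntl held it as TAGGTCA at 16 to 10 bases before the start, and Timeless held it on the other strand as TGACCGA at 156 to 150. Genes with an E-box in the window lay on both sides at 1 h, with Nr1d1 at -3.41 and Bhlhe40 at 1.75 on the log2 scale.

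Genes reported to be driven through D-boxes were read from a list of 15, of which 12 were tested. This list shares 6 genes with the clock list (Per1, Per2, Per3, Nr1d1, Cry1 and Rora), so both lists count the same Nr1d1 call. Like the clock list, it was chosen with earlier results of these data known, so its counts are a description. The 3 genes that were not tested are ones of liver and pituitary. Cyp7a1 and Tshb had no counts in any library, and Nr1i3 had 1 count in 1 library.

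At 1 h, 1 of the 12 was called (Nr1d1, lower), beside 0.0581% of all genes, and at 4 h none was called by edgeR. At 4 h, 4 passed an unadjusted p of 0.05, beside 12.4% of all genes, and DESeq2 called 4, beside 3.52% of all genes. The same 4 genes, Per1, Per3, Cry1 and Nr1d1, made up both counts, and all are also on the clock list. The list's median log2 fold change was 0.19 at 1 h and -0.04 at 4 h, against -0.01 and 0.03 over all genes. Por, which encodes the reductase that serves cytochrome P450 enzymes, was at 0.32 at 1 h and -0.13 at 4 h on the log2 scale. Alas1, the first enzyme of heme synthesis, was at 0.19 and 0.05, and Pdxk, which makes the active form of vitamin B6, was at 0.89 and 0.45. Abcb1a, a drug efflux transporter, was at 0.22 and -0.43, Alb, which encodes albumin, at -1.04 and -0.75, and the hormone gene Fgf21 at -0.51 and -0.13. None of these 6 genes outside the clock list was called, and the median of the list lay above that of all genes at 1 h and below it at 4 h. Between 4 h and 1 h, none of the clock list or of this list was called by edgeR or DESeq2. The edgeR fit put 3 and 2 of their genes under an unadjusted p of 0.05, beside 2.58% of all genes. The 2 of this list, Per1 and Nr1d1, are on both lists and are counted in both.

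The genes whose levels followed each output gene most closely were ranked by Pearson correlation of log2 CPM over the 9 libraries, among 10444 genes with a mean of at least 5 CPM. For Dbp they were Zfp111 (r = 0.958, rho = 0.800), Reep4 (r = 0.952, rho = 0.783) and Pdcd7 (r = 0.945, rho = 0.683). Zfp111 had 19.5, 17.1 and 24.4 CPM in normal and between 4.22 and 8.02 CPM in the 6 ischemic libraries, a smaller difference than that of Dbp.

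For Tef the closest genes were Gas1 (r = 0.975, rho = 0.983), the REV-ERB gene Nr1d2 (r = 0.964, rho = 1.000) and again Zfp111 (r = 0.964, rho = 0.983). Nr1d2 ranked the 9 libraries in exactly the order that Tef did. For Nfil3 they were Slc25a25 (r = 0.986, rho = 0.950), Csrnp1 (r = 0.979, rho = 0.867) and Psma6 (r = 0.978, rho = 0.933). Slc25a25 had 12.5, 19.2 and 25.3 CPM in normal, 82.3, 94.1 and 79.9 CPM at 1 h and 133, 103 and 90.1 CPM at 4 h, close to the pattern of Nfil3.

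For Usp2 the closest were Eif3j (r = 0.969, rho = 1.000), Eif1 (r = 0.965, rho = 0.967) and Fam32a (r = 0.962, rho = 0.917). Eif3j was at 48.4, 59.3 and 65.7 CPM in normal and 74.2, 81 and 63.1 CPM at 4 h, and these overlapped. Eif1 was 1.59-fold higher at 4 h than in normal, at 538 against 339 CPM, and Fam32a 1.28-fold higher, at 113 against 88 CPM, with no overlap between the groups for either gene. None of the genes closest to Usp2 was among those closest to Dbp or Tef. Libraries of 3 groups set much of each of these correlations, which are given as a description.

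**Figure D4:**
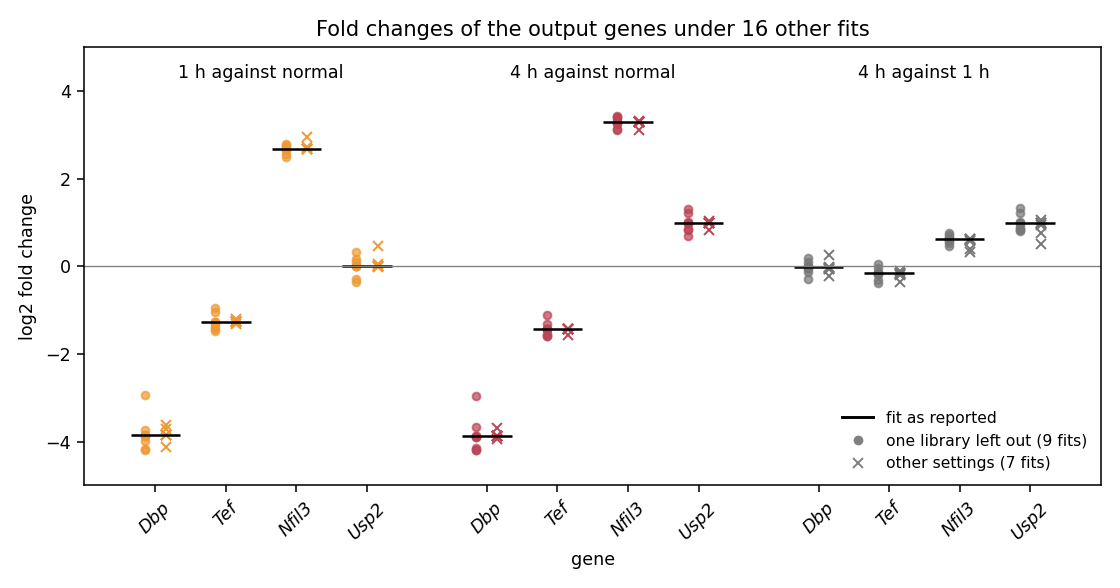
Log2 fold changes of the 4 output genes in the 3 comparisons, as reported (black line), with 1 library left out (circles, 9 fits) and under other settings (crosses, 7 fits). Dbp at 1 h ran from -4.19 to -2.93 over these fits and Nfil3 from 2.49 to 2.96, and the isolated upper circle of Dbp in both contrasts with normal is the fit without normal replicate 3.

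Over the 16 other fits, Tef ran from -1.48 to -0.94 at 1 h and from -1.59 to -1.11 at 4 h, and Nfil3 ran from 3.11 to 3.44 at 4 h. Usp2 ran from -0.35 to 0.47 at 1 h, on both sides of 0, and from 0.69 to 1.31 at 4 h. The edgeR call of Nfil3 at 1 h was lost without normal replicate 1, 2 or 3, without 1 h replicate 2 or 3 and with only the 2 groups fitted, and that at 4 h without normal replicate 2. These refits use the same contrasts the genes were selected on and are no evidence for the differences.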

How the data were processed

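RNA of 9 rat arteries was sequenced on an Illumina HiSeq instrument. The authors deposited 1 table of counts, whole numbers of reads per gene symbol, not normalized. HISAT2 is named in the submitters' processing notes without a version, and the counting tool, strand setting and genome build are not given in the sources used here. The study's methods describe arrays and a random variance F-test on log ratios, and its text also mentions transcriptome sequencing. A count model was used in place of that test.

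Counts of all 15482 genes kept by filterByExpr were fitted over the 9 libraries with edgeR 4.0.16 in R 4.3.3 (TMM factors of 0.814 to 1.22, quasi-likelihood F-test, Benjamini-Hochberg), and calls needed both a fold over 1.5 and an adjusted p below 0.05. Of 37203 symbols, 13156 had no counts. CPM were TMM-scaled, and log2 CPM used a prior count of 2. No 2 libraries of a group were copies (chi-square per degree of freedom at least 29.9). The scripts were tested on simulated data. DESeq2 1.42.0, other scalings, no filter, 2-group fits, a replicate block, a nerve covariate and leaving out each library were the alternatives. The ratio fits without 1 library were added after the data were seen.

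The genes and lists were chosen with earlier results of these data known. Named were the 5 output genes, genes of the clock and D-box lists, and the 3 genes most correlated with each output gene (mean of at least 5 CPM, uncharacterised identifiers passed over). Marker genes were named where they are at 0. The labels give 3 rats per group, while the study's methods name 3 individuals for the 3 conditions. The methods also say that rats were killed at the end of ischemia and the artery taken then. The same rat therefore cannot have given arteries of several groups. What the 3 individuals refer to is not stated, and p-values may cover only the spread between these samples. Promoter windows came from RefSeq (GRCr8).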

Additional observations from a re-analysis of the deposited data

How the results depend on the processing

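Of 192 recomputed log2 fold changes of the 4 output genes (16 alternatives, 3 comparisons), 180 stayed on the same side of the threshold in the same direction or within 1 SE. Another 5 passed only under the alternative and 7 only in the fit as reported. None that was called, or had an unadjusted p under 0.05 in the edgeR fit as reported, changed sign. Smaller differences did change sign. Usp2 ran from -0.35 to 0.47 at 1 h, and at 4 h against 1 h Dbp ran from -0.29 to 0.26 and Tef from -0.37 to 0.05. Most of the 192 are of contrasts the genes were selected on, so the counts describe the fits only. Counts of calls depended far more on the tool, and the cause was not tested. At 1 h against normal, all genes called went from 9 to 658 with DESeq2, 4 with only the 2 groups compared, 17 with the nerve covariate and 0 to 11 with 1 library left out. At 4 h they went from 14 to 557, 4, 109 and 1 to 14 under the same settings. Output genes called went from 1 to 3 with DESeq2 in both contrasts, to 0 with the 2 groups only at 1 h, to 2 with the nerve covariate at 4 h (Dbp and Nfil3), and to 0 to 1 with 1 library left out in both. Clock genes called at 1 h went from 1 to 4 with DESeq2, 0 with 2 groups and 0 to 1 with 1 library left out, and at 4 h from 0 to 7 with DESeq2, 3 with the nerve covariate and 0 to 1. D-box genes called at 1 h went from 1 to 2, 0 and 0 to 1, and at 4 h from 0 to 4, 2 and 0 to 1, under the same settings. The clock and D-box call at 4 h with 1 library left out was Nr1d1 without 1 h replicate 2.

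With the replicate block, 7 genes were called at 1 h and 7 at 4 h, with 1 output gene in each. Deviations of libraries with the same number correlated between -0.651 and -0.021 for replicate 1, 0.282 and 0.623 for replicate 2, and -0.157 and 0.660 for replicate 3. Libraries with different numbers were not compared, so these values cannot show whether the numbers link the libraries. The fit as reported did not pair them. The comparison of 4 h with 1 h gave 0 calls under every alternative run (edgeR and DESeq2), with 400 genes at an unadjusted p under 0.05 in edgeR and 628 in DESeq2. That number was 127 without 1 h replicate 3, 139 without 4 h replicate 1, 194 without 4 h replicate 2, 893 without 1 h replicate 2, 3295 without 4 h replicate 3 and 178 with the nerve covariate. Scaling by library size alone moved the median log2 fold change of all genes to -0.15 at 4 h against normal and to -0.24 at 4 h against 1 h. The lowest Dbp count was 57, which limits the precision of its ischemic values.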
